A study of Mus musculus with 9 samples.

Results

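The comparison described here set RAW264.7 cells given ginsenoside Rd (GRd) at 10 µM against the same cells given GRd at 1 µM. It covers every sequence of the deposited small RNA table, 1571 distinct sequences of 1571, in 6 of the 9 libraries, 3 for each dose. RAW264.7 is an established mouse line of macrophage-like cells, wild type by label, and GRd is a triterpene saponin of ginseng. By label both groups received lipopolysaccharide (LPS), an outer membrane component of bacteria to which macrophages respond, during 6 h before GRd was added at their dose for 24 h. The treatment text shared by all samples names another single concentration beside a range of them, and the doses used here are those of each sample's own labels. The remaining 3 libraries, a control without GRd, entered only the estimate of the spread, because their labels disagree on whether they had LPS. Library 3 at 10 µM carries the cell line label RAW264.8, while its title names RAW264.7, so results are given with and without it. Nothing in the labels says that the libraries of a group came from separate cultures, so p-values reflect how far these libraries vary, and that variation may be technical. A single cell line stands in for macrophages here.

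MicroRNAs (miRNAs) are short RNAs cut from the arms, 5p and 3p, of a hairpin. They guide a silencing complex to messenger RNAs that pair mainly with the seed, bases 2 to 8 of the miRNA, so that miRNAs with a common seed have overlapping targets. In macrophages, Toll-like receptor signals such as LPS are known to induce miR-155, which favours inflammatory gene expression, and miR-146a, miR-21 and miR-132, which dampen it. For many hairpins the guide arm is kept at a high level and the opposite arm is degraded.

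The sequences that follow are some of those described below, and none of them passed the test between the doses with all libraries. They were read from the deposited table, 5′ to 3′, with the seed in capitals, and each lies whole in a mouse hairpin or gene (GRCm38). The first set holds 3 sequences among those of smallest p both with and without library 3, and miR-148b-3p, which has the seed of miR-152-3p.
miR-152-3p: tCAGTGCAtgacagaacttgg
miR-148b-3p: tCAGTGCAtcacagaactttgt
miR-331-3p: gCCCCTGGgcctatcctagaa
efu-mir-9277-p3_1ss8CT: tTGGGGTTtccccgcgcaggttcg
The second set is a pair from a single cluster with a common seed.
miR-132-3p: tAACAGTCtacagccatggtcg
miR-212-3p: tAACAGTCtccagtcacggcc
The third set holds rarer arms of hairpins whose abundant arm is well known in macrophages or tumours. It also holds miR-182-3p, a name used here for a stretch that directly follows miR-182-5p in its hairpin.
miR-182-3p: gTAAGGTAatgggacccg
miR-221-5p: aCCTGGCAtacaatgtagattt
miR-21a-3p: cAACAGCAgtcgatgggctg
The last set holds the main LPS-induced miRNAs of macrophages, and miR-214-3p, a miRNA of mesenchymal cells that was high in a single library.
miR-155-5p: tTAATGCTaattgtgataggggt
miR-146a-5p: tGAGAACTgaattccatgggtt
miR-214-3p: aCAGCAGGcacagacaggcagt

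The values are the authors' normalized counts, read numbers per sequence scaled to each library. They summed to between 6235670 and 6815351 in the 6 libraries. In each library 97.3 to 97.9% of values lay within 0.01 of a whole multiple of a step, which gives an estimated 9896000 to 18428000 reads behind the sums. Both ends of that range were at 10 µM, the fewest reads in library 3, which also had the largest sum, and the most in library 1. Whether read depth bears on the differences between libraries was not tested. Sequences found in mouse hairpins took 98.2 to 98.9% of each library. The macrophage markers (5 of 5 found) had summed levels of 657732, 520034 and 288154 normalized counts at 10 µM, against 516559, 543870 and 671939 at 1 µM. Fibroblast and smooth muscle markers (4 of 4 found) summed to 1145, 961 and 6726 at 10 µM, against 1011, 1027 and 1084 at 1 µM. In library 3 at 10 µM the macrophage sum was thus the lowest of the 6 and the fibroblast sum the highest. The macrophage sum is mostly made of the LPS-induced miR-21a-5p, miR-146a-5p and miR-155-5p. The lineage markers were mixed in library 3 at 10 µM. There miR-142a-3p, at 1191, was the highest of the 6. The more abundant arm miR-142a-5p was the lowest of the 6 there, at 2811, against 5510 to 7690 at 1 µM. miR-223-3p was also the lowest there, at 802, against 888 to 1089 at 1 µM. The liver marker miR-122-5p stood at 77.4, 82.0 and 456 at 10 µM, against 79.0, 56.1 and 86.9 at 1 µM. Of the other markers, miR-124 (neural), miR-1a (skeletal muscle) and miR-486a (red cell) were not found in the table. In bulk RNA, fewer cells of a type and less of its RNA per cell cannot be told apart.

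No sequence passed the test between the doses. Of 1561 sequences tested with limma, 0 (0%) were under 0.05 after Benjamini-Hochberg adjustment, and 75 (4.8%) were so before it. The smallest adjusted p was 0.683. Without library 1 at 10 µM 9 sequences passed, mainly forms high in library 2, and without any other single library 0 did. The log2 difference was positive for 903 sequences and negative for 548, and its median was 0.15, or 0.05 without library 3. Some sequences, tested because of their level in the control group, were listed at 0 in all 6 libraries and had a difference of 0. Differences are given as log2(value + 1) at 10 µM minus that at 1 µM, a scale that understates changes of low sequences. Among 423 abundant sequences, those with a mean of at least 50 normalized counts over the 6 libraries, 22 (5.2%) were higher in every 10 µM library than in any 1 µM library and 27 (6.38%) were lower in every one, 49 in all (11.6%). Over all 1561 the groups did not overlap in 106 (6.79%). If the libraries were interchangeable, 3 against 3 would separate fully in either direction with a permutation probability of 0.1. The 11.6% of abundant sequences is close to it. For 288 of the 423 (68.1%) the 95% confidence interval of the difference lay within 2-fold either way, and without library 3 this held for 361 (85.3%). For the median abundant sequence the interval reached 0.54 to either side on the log2 scale, or 0.39 without library 3. These intervals are not adjusted for the number of sequences, and detection of differences under 2-fold was not simulated.

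**Figure D1:**
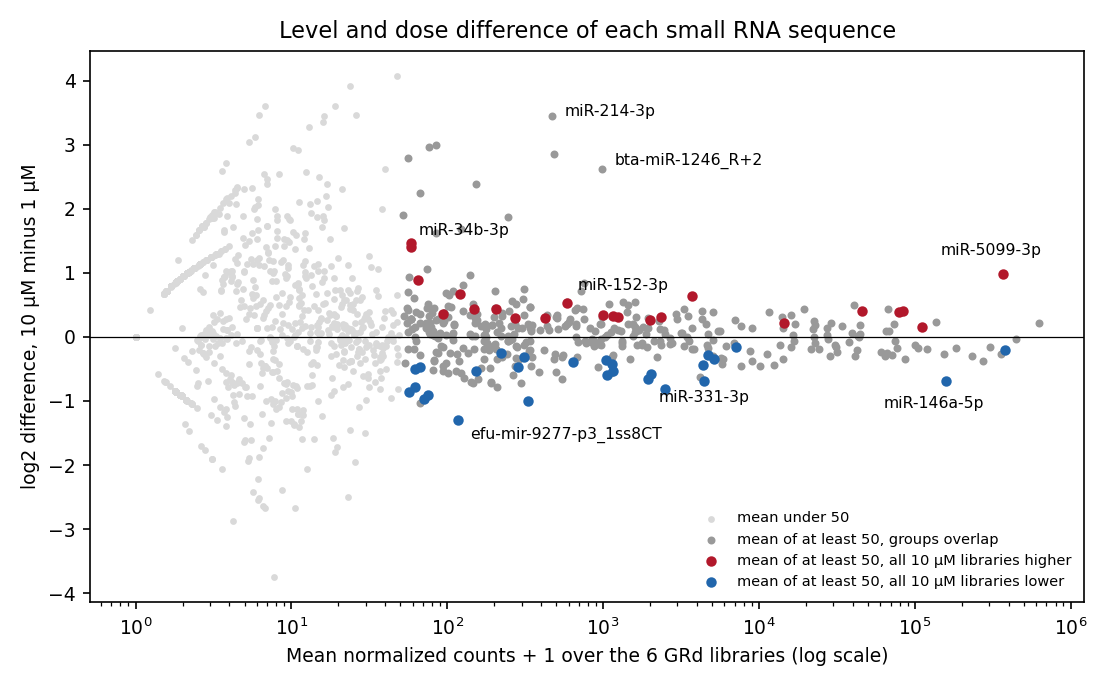
Log2 difference between the doses (10 µM minus 1 µM) of the 1561 sequences tested, against their mean normalized counts plus 1 over the 6 libraries (log scale). Red points are the 22 abundant sequences higher in every 10 µM library and blue points the 27 lower in every one. Most abundant miRNAs lie close to 0, and the differences of largest size (-3.75 and 4.07) belong to sequences with a mean under 50.

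Among abundant sequences higher at 10 µM, miR-152-3p was among those of smallest p both with library 3 and without it. Its seed is that of miR-148a and miR-148b, a family known to repress the DNA methyltransferase DNMT1, and it lies in an intron of Copz2 (chromosome 11, 96850439 to 96850459). It had 761, 666 and 646 normalized counts at 10 µM, against 486, 462 and 483 at 1 µM. Each 10 µM library was above each 1 µM library. The log2 difference was 0.53 (SE 0.20), or 0.58 (SE 0.17) without library 3, and the limma adjusted p by Benjamini-Hochberg was 0.683 and 0.547 without it, not past the threshold. Its family member miR-148b-3p (chromosome 15), named after its values were seen, had 17488, 14675 and 14404 at 10 µM, against 13189, 12708 and 14288 at 1 µM, also without overlap. Summed over the 3 sequences with the seed CAGTGCA, the family stood at 18267, 15613 and 15175 at 10 µM, against 13702, 13190 and 14807 at 1 µM. Most of this sum is miR-148b-3p, so its lack of overlap between the groups largely repeats the values of that miRNA. The third member, miR-148a-3p, overlapped, with 17.4, 272.5 and 125.3 at 10 µM, against 27.6, 20.0 and 35.6 at 1 µM. The log2 difference of the sum, 0.23 (SE 0.13), did not pass (limma adjusted p = 0.600 by Benjamini-Hochberg).

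In the other 5 higher sequences found in mouse hairpins, library 3 was the highest of the 6 libraries. miR-214-3p, a miRNA of mesenchymal cells cut from the transcript Dnm3os (chromosome 1), had 39.0, 48.2 and 2654 normalized counts at 10 µM, against 12.8, 42.8 and 5.57 at 1 µM. The groups overlapped, and the log2 difference of 3.45 (SE 1.29) was 1.49 (SE 1.18) without library 3. miR-5099-3p, matched by its core to a hairpin on chromosome 12, had 272531, 250443 and 1058760 at 10 µM, against 235905, 234791 and 169410 at 1 µM. It was thus the second most abundant sequence in library 3, and its log2 difference was 0.98 (SE 0.40), or 0.31 (SE 0.17) without that library. miR-34b-3p, of the p53-regulated miR-34 family, had 39.7, 44.1 and 181.8 at 10 µM, against 34.5, 24.7 and 18.9 at 1 µM. Its groups did not overlap, and its log2 difference of 1.40 was 0.70 without library 3. miR-19a-3p, of the miR-17-92 cluster that promotes proliferation, had 63.4, 48.2 and 143 at 10 µM, against 11.8, 39.9 and 40.1 at 1 µM. It did not overlap between the groups either, with log2 differences of 1.47 and 1.01 without library 3. miR-184-3p, known from the eye and nervous system, had 82.2, 57.4 and 114 at 10 µM, against 46.4, 39.9 and 44.5 at 1 µM, and log2 differences of 0.89 and 0.65. In miR-5099-3p, miR-34b-3p, miR-19a-3p and miR-184-3p, libraries 1 and 2 at 10 µM were also above every 1 µM library. None of these 5 passed (limma adjusted p = 0.683 each by Benjamini-Hochberg).

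The other 2 sequences of smallest p among the higher ones were forms of miR-1246, a miRNA known from human cells, which were found in no mouse hairpin. The form listed as bta-miR-1246_R+2 had 56.5, 4754 and 796 normalized counts at 10 µM, against 109.6, 87.4 and 95.8 at 1 µM. The form listed as hsa-miR-1246_L-1R+2 had 17.1, 2394 and 376 at 10 µM, against values between 26.6 and 39.0 at 1 µM. In both, library 2 at 10 µM was the highest and library 1 at 10 µM the lowest of the 6. Their log2 differences were 2.62 (SE 0.97) and 2.86 (SE 1.05), with a limma adjusted p of 0.683 each by Benjamini-Hochberg. Without library 1 at 10 µM both passed, at log2 differences of 4.31 and 4.76. Without library 2 at 10 µM neither did, at 1.12 and 1.24.

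Among abundant sequences lower at 10 µM, miR-331-3p had the second smallest p of that direction. It lies within Vezt, on the strand of that gene (chromosome 10, 93963783 to 93963803), and in human cells it is known to repress ERBB2. It had 1758, 1656 and 1143 normalized counts at 10 µM, against 2465, 2355 and 2232 at 1 µM. The 3 libraries at 1 µM lay within a narrow range, and all 3 at 10 µM lay below it. The log2 difference was -0.65 (SE 0.19), and -0.46 (SE 0.11) without library 3, with limma adjusted p of 0.683 and 0.536 by Benjamini-Hochberg, not past the threshold. It was the only sequence in the sum of its seed CCCCTGG.

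The smallest p among the lower ones belonged to efu-mir-9277-p3_1ss8CT, which lies on chromosome 13 in Gm44456 and in n-TStga1, a tRNA in RefSeq. It had 112, 54.3 and 42.7 normalized counts at 10 µM, against 120, 202 and 164 at 1 µM. The closest pair, library 1 of each dose, was separated by a narrow gap. Its log2 difference was -1.30 (SE 0.36), or -1.01 (SE 0.35) without library 3, and without library 1 at 10 µM it passed at -1.70.

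Rarer sequences of 3 hairpins were also among the 8 lower sequences of smallest p. miR-21a-3p, the arm opposite miR-21a-5p, had 2631, 2433 and 784 normalized counts at 10 µM, against 2906, 3177 and 2967 at 1 µM, without overlap. miR-182-3p, from a cluster known from sensory organs, is here a stretch that directly follows miR-182-5p in the hairpin, not the opposite arm. It lies at 30165944 to 30165961 on chromosome 6 (minus strand), next to miR-182-5p at 30165962 to 30165986. It had 284, 344 and 90.9 at 10 µM, against 382, 493 and 384 at 1 µM, also without overlap. miR-221-5p, opposite the proliferation-linked miR-221-3p, had 4229.9, 3736 and 2103 at 10 µM, against 4011, 5439 and 5608 at 1 µM, and overlapped through library 1. In each of the 3, library 3 at 10 µM was the lowest of the 6 libraries. Their log2 differences were -0.82, -1.003 and -0.63 with all libraries, and -0.25, -0.41 and -0.32 without library 3, none past the threshold. The remaining members of the 8 were found in no mouse hairpin. Of them, hsa-miR-4454_L-2 had 972, 1035 and 581 at 10 µM, against 1217, 1345 and 1243 at 1 µM. The candidate PC-3p-10454_403, predicted by the authors' program, had 46.7, 71.7 and 28.9 at 10 µM, against 86.9, 83.6 and 103.6 at 1 µM.

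Other abundant miRNAs whose groups did not overlap were named after their values were seen. miR-28a-5p (chromosome 16) had 1127, 1093 and 1109 normalized counts at 10 µM, against 894, 841 and 885 at 1 µM. miR-146b-3p (chromosome 19), the rarer arm of the miR-146b hairpin, had 1252, 1442 and 1445 at 10 µM, against 1173, 1029 and 1146 at 1 µM. miR-92a-1-5p (chromosome 14), from the miR-17-92 host transcript Mir17hg, had 1464, 1143 and 1236 at 10 µM, against 991, 944 and 1123 at 1 µM. In these 3 library 3 did not stand apart, and their log2 differences were 0.35 (SE 0.19), 0.30 (SE 0.18) and 0.33 (SE 0.18). miR-151-5p (chromosome 15), linked to cell migration in liver cancer, had 51839.9, 44237 and 62141 at 10 µM, against 42530.3, 38638 and 37117 at 1 µM. miR-1981-5p (chromosome 1) had 3092, 2937 and 8203 at 10 µM, against 2835, 2751 and 2511 at 1 µM, and its log2 difference of 0.64 was 0.16 without library 3. Among lower ones, the rarer arm miR-125b-2-3p had 4396, 4813 and 1617 at 10 µM, against 4946, 5423 and 5351 at 1 µM. The rarer arm let-7i-3p had 2128, 1986 and 964 at 10 µM, against 2399, 2384 and 2365 at 1 µM. Library 3 was far below the other 5 libraries in both, and their log2 differences of -0.69 and -0.58 were -0.19 and -0.21 without it. None of these 7 passed (limma adjusted p = 0.683 each by Benjamini-Hochberg).

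**Figure D2:**
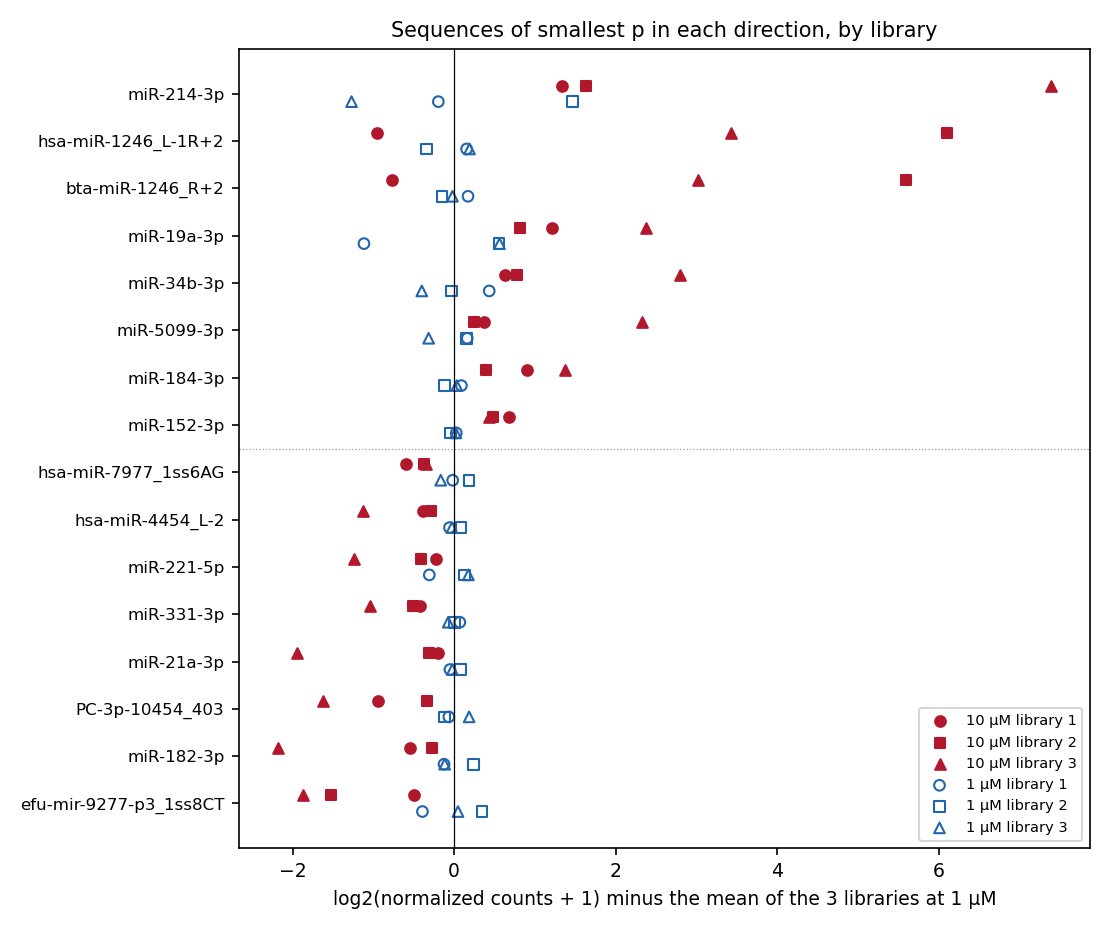
Normalized counts on the log2(value + 1) scale minus the mean of the 3 libraries at 1 µM, for the 8 abundant sequences of smallest p in each direction, with filled red points for 10 µM and open blue points for 1 µM. Library 3 at 10 µM (red triangles) lies farthest out in most rows, while the 3 points of miR-152-3p at 10 µM (761, 666 and 646 normalized counts) lie close together.

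Library 3 at 10 µM stood apart in far more sequences than libraries 1 and 2. Of the 423 abundant sequences, it lay above the range of the 1 µM libraries in 188 and below it in 188, by more than 2-fold in 51 and 41. Library 1 at 10 µM lay above the range in 135 and below it in 141, with 0 beyond 2-fold either way. Library 2 lay above in 136, of which 7 beyond 2-fold, and below in 114, of which 3. The median SD over abundant sequences was 0.46 on the log2 scale at 10 µM, 0.20 for libraries 1 and 2 there, and 0.14 at 1 µM. The direction of the dose difference was the same with and without library 3 in 277 of the 423. Among the sequences without overlap, library 3 was the highest 10 µM library in 14 of the 22 higher ones and the lowest in 19 of the 27 lower ones.

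**Figure D3:**
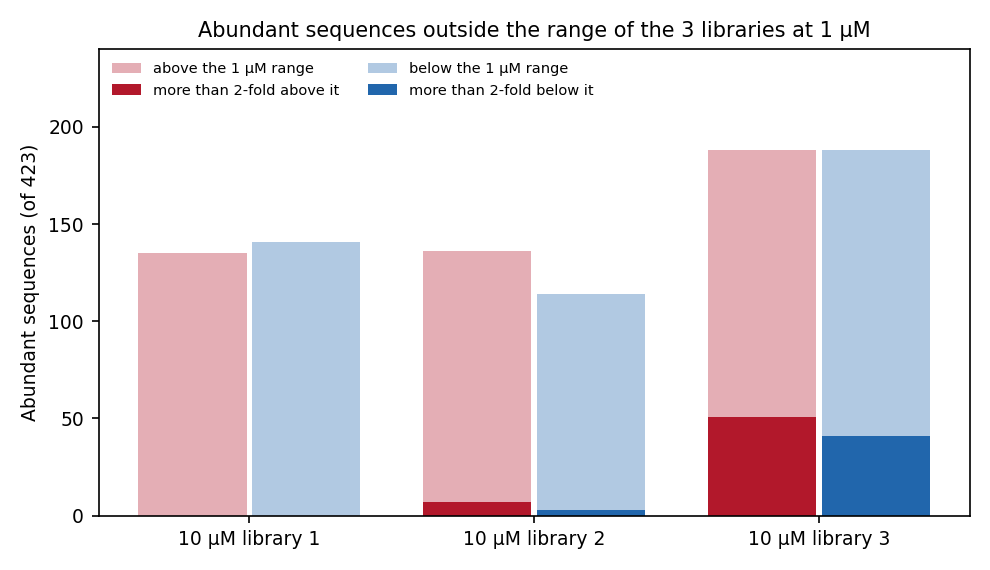
Number of the 423 abundant sequences in which each 10 µM library lay above (red) or below (blue) the range of the 3 libraries at 1 µM, with those more than 2-fold outside it in full colour. Library 3 has 51 and 41 of these, library 2 has 7 and 3, and library 1 has 0.

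With libraries 1 and 2 alone at 10 µM, 0 of the sequences passed as well, and the smallest adjusted p was 0.129 (limma, Benjamini-Hochberg). It belonged to the predicted candidate PC-5p-3713_1568, which had 1257, 1292 and 3178 normalized counts at 10 µM, against 1954, 2005 and 1821 at 1 µM. Libraries 1 and 2 were below all 1 µM libraries and library 3 above them, and the log2 difference was -0.16 with all libraries and -0.59 (SE 0.10) without library 3. In the fit of seeds it is the only sequence with the seed TCCCGCT, which passed without library 3 (adjusted p = 0.0402 by limma and Benjamini-Hochberg).

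The miR-132/212 cluster had 3 of the 5 higher sequences of smallest p without library 3. These miRNAs are induced by LPS and by the transcription factor CREB, and miR-132-3p (chromosome 11, 75173723 to 75173744) and miR-212-3p (75173443 to 75173463) share the seed AACAGTC printed above. miR-132-3p had 8419, 9556 and 6355 normalized counts at 10 µM, against 6982, 7030 and 7432 at 1 µM. miR-212-3p had 1404, 1387 and 905 at 10 µM, against 1075, 1105 and 1120 at 1 µM. In both, libraries 1 and 2 at 10 µM were above every 1 µM library and library 3 was below every one. The other arm, miR-212-5p, had 796, 657 and 558 at 10 µM, against 509, 590 and 540 at 1 µM, with libraries 1 and 2 above the 1 µM range and library 3 within it. Their log2 differences were 0.16, 0.14 and 0.28 with all libraries, and 0.33 (SE 0.11), 0.34 (SE 0.12) and 0.41 (SE 0.13) without library 3. The sum over the seed AACAGTC stood at 9824, 10943 and 7260 at 10 µM, against 8057, 8136 and 8553 at 1 µM, a log2 difference of 0.16 (SE 0.17) with all libraries and 0.33 (SE 0.10) without library 3. The limma adjusted p of that sum was 0.680 and 0.694 by Benjamini-Hochberg. The other higher sequence added without library 3 was let-7g-5p, of the let-7 family that restrains growth, with 28571, 24812 and 19894 at 10 µM, against 21659, 19609 and 22510 at 1 µM.

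The macrophage miRNAs did not pass in either direction. miR-155-5p (chromosome 16, 84714143 to 84714165, in Mir155hg) had 83537, 55424 and 33780 normalized counts at 10 µM, against 53888, 61111 and 77411 at 1 µM. Library 1 at 10 µM was the highest of the 6 and library 3 the lowest, and the log2 difference was -0.23 (95% interval -0.80 to 0.33). miR-146a-5p, which restrains Toll-like receptor signals by feedback (chromosome 11, 43374435 to 43374456), had 168935, 166496 and 54178 at 10 µM, against 172208, 179306 and 206395 at 1 µM. All 3 libraries at 10 µM were below those at 1 µM, libraries 1 and 2 by little, and the log2 difference of -0.69 (SE 0.33) was -0.14 (SE 0.13) without library 3. miR-146b-5p, with the same seed, had 111852, 84647 and 40664 at 10 µM, against 82131, 88502 and 108104 at 1 µM, overlapping. miR-21a-5p had 393189, 287737 and 194505 at 10 µM, against 280144, 292835 and 375147 at 1 µM, with a log2 difference of -0.16 and an interval from -0.73 to 0.41. miR-155-5p, miR-146a-5p, miR-146b-5p and miR-21a-5p thus had the same order of libraries at 10 µM, highest in library 1 and lowest in library 3.

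The other macrophage miRNAs also had no member past the threshold. miR-223-3p, a miRNA of granulocytes and monocytes, had 1110, 969 and 802 normalized counts at 10 µM, against 949, 888 and 1089 at 1 µM, a log2 difference of -0.03 with an interval from -0.43 to 0.37. miR-142a-3p, found throughout blood cells, had 1119, 796 and 1191 at 10 µM, against 759, 881 and 1029 at 1 µM, a log2 difference of 0.21. miR-147-3p, induced by LPS and known to limit cytokine output, had 76.0, 33.8 and 49.6 at 10 µM, against 51.3, 57.0 and 64.6 at 1 µM. Each of these groups overlapped. miR-125b-5p, known to target TNF messenger RNA, had 112378, 147227 and 185668 at 10 µM, against 127841, 115447 and 127196 at 1 µM. Of the 12, miR-125b-5p and miR-142a-3p were those with the highest of the 6 values in library 3. miR-221-3p had 484396, 519962 and 326678 at 10 µM, against 447771, 419602 and 471909 at 1 µM. miR-222-3p, with the same seed, had 357244, 378898 and 245217 at 10 µM, against 358618, 377010 and 424922 at 1 µM. Library 3 was the lowest of the 6 in both, and their log2 differences were -0.04 and -0.26. The log2 differences of miR-27a-3p (-0.29), miR-132-3p (0.16) and let-7c-5p (-0.18) did not pass either, so 0 of the 12 did, and without library 3 their differences ranged from -0.17 for miR-147-3p to 0.33 for miR-132-3p.

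**Figure D4:**
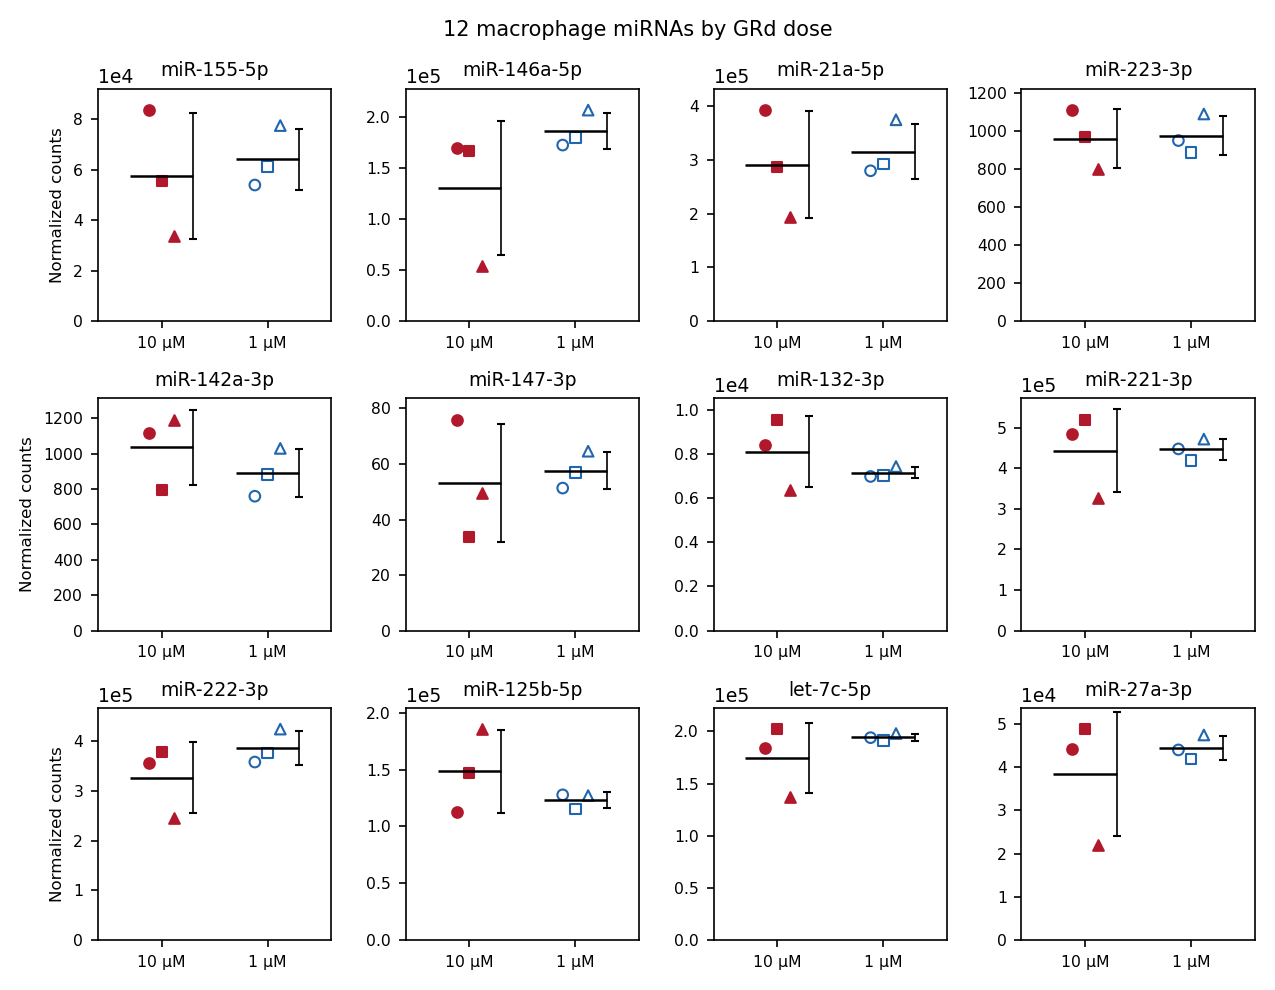
Normalized counts of 12 macrophage miRNAs in the 3 libraries at 10 µM (filled red) and the 3 at 1 µM (open blue), from 0; circles, squares and triangles are libraries 1, 2 and 3, black lines the means and bars the SD (n = 3). The groups overlap in 11 of the 12, and in miR-146a-5p the 2 upper points at 10 µM (168935 and 166496) lie just under the lowest at 1 µM (172208).

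Ratios of the 5p to the 3p arm do not depend on how libraries were scaled, and 122 hairpins had enough of both arms. Of these, 0 (0%) passed and 10 (8.2%) had an unadjusted p under 0.05 (limma, smallest Benjamini-Hochberg adjusted p 0.526). Those 10 include miR-182, whose sequence counted as 3p is the stretch that directly follows miR-182-5p, not the opposite arm. The smallest p belonged to let-7g, whose log2 ratio of 5p to 3p was 7.43, 7.73 and 8.40 at 10 µM, against 6.91, 6.87 and 7.10 at 1 µM, without overlap. The rarer let-7g-3p had 164, 115.8 and 57.9 normalized counts at 10 µM, against 179.6, 166 and 163 at 1 µM, with a narrow overlap. In miR-29c, of the family known to repress collagen genes, the log2 ratio was 0.63, 0.16 and 0.42 at 10 µM, against 1.26, 1.50 and 0.68 at 1 µM. In miR-221 it was -6.84, -7.12 and -7.28 at 10 µM, against -6.80, -6.27 and -6.39 at 1 µM. All 3 ratios were separated between the groups, by a narrow gap in miR-29c and miR-221. Their differences were 0.89 (SE 0.25), -0.74 (SE 0.26) and -0.59 (SE 0.21) on the log2 scale, and 0.62, -0.75 and -0.49 without library 3. For miR-155 the difference was -0.05 and for miR-21a 0.65, where the log2 ratio was 7.22, 6.89 and 7.95 at 10 µM, against 6.59, 6.53 and 6.98 at 1 µM.

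Sums over sequences with a common seed gave the same count of calls. Of 351 seed families, 0 (0%) passed and 14 (3.99%) had an unadjusted p under 0.05 (limma, smallest Benjamini-Hochberg adjusted p 0.594). The 3 of smallest p were the families of miR-331-3p and of efu-mir-9277-p3_1ss8CT, each a single sequence, and TCCCGGC, 2 forms of hsa-miR-7977 found in no mouse hairpin. The last stood at 3326, 3859 and 3935 normalized counts at 10 µM, against 4942, 5688 and 4460 at 1 µM, with a log2 difference of -0.44 (SE 0.15) and -0.48 (SE 0.14) without library 3. The larger families given next were chosen for description rather than by p, and whether family size bears on the difference was not tested. The let-7 seed GAGGTAG, 14 sequences, stood at 672236, 704763 and 521258 at 10 µM, against 657093, 634246 and 671516 at 1 µM, a log2 difference of -0.06 (SE 0.15). The miR-15/16 seed AGCAGCA, 10 sequences, stood at 59043, 53083 and 54344 at 10 µM, against 54038, 54986 and 60350 at 1 µM, a log2 difference of -0.02 (SE 0.12). Both overlapped between the doses, and library 3 was the lowest of the 6 only in the let-7 sum.

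Lists of related miRNAs are described by their counts, since no list was tested. Over all 1561 sequences 903 were higher and 548 lower (median log2 difference 0.15), and over the 423 abundant ones 233 were higher and 190 lower (median 0.05). Of 19 tested sequences of miRNAs induced by Toll-like receptor signalling, 7 had higher and 12 had lower levels at 10 µM (median log2 difference -0.19), and 13 were higher and 6 lower without library 3, with a median of 0.13. In the 12 abundant ones, library 1 at 10 µM was above the 1 µM range in 10 and library 3 below it in 10, against 135 and 188 of all 423 abundant sequences. Libraries of 1 µM also differed in this list, where library 1 was below the other 2 in 10 of the 12 and library 3 above them in 9. Over all 423 abundant sequences these 1 µM counts were 131 and 172. The 27 myeloid sequences had 8 higher and 18 lower, with medians of -0.07 and 0.03 without library 3. Of its abundant members, miR-181a-5p, which tunes receptor signalling in lymphocytes, had 30363, 32949 and 24664 normalized counts at 10 µM, against 34214, 36309 and 32781 at 1 µM. miR-342-3p, induced by the myeloid factor PU.1 and lying in an intron of Evl (chromosome 12), had 29044, 25085 and 23203 at 10 µM, against 27633, 33530.2 and 33584.5 at 1 µM. Both overlapped narrowly and were mostly lower at 10 µM, with log2 differences of -0.24 (SE 0.18) and -0.29 (SE 0.18). The miR-15/16 family (14 sequences) had medians of -0.14 and 0.17, and the miR-23/27/24 clusters (15) had -0.09 and 0.07. In each of these 4 lists the sign of the median changed when library 3 was left out. In each list 0 sequences passed.

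Further lists had medians between -0.31 and 0.14. The miR-17-92 cluster and its paralogues (25 tested) had a median of 0, the value of mdo-miR-106-5p, which was listed at 0 in all 6 libraries. The miR-30 family (13) had a median of 0.03, the miR-29 family (7) of 0.14, and the cluster of miR-183, miR-96 and miR-182 (6) of 0.06. The let-7 family (27) had a median of -0.09, the clusters of miR-99, let-7 and miR-125 (17) of -0.06, and the hypoxia-induced miR-210 (4 sequences) of -0.08. The 4 sequences of the miR-221 and miR-222 cluster were all lower, with a median of -0.31, or -0.10 without library 3. miR-99b-5p, the most abundant sequence over the 6 libraries, had 546146, 458362 and 1085110 normalized counts at 10 µM, against 613358, 585581 and 485302 at 1 µM, so that library 3 held the highest value of the 6. miR-92a-3p, also among the 5 most abundant, had 302768, 394334 and 359972 at 10 µM, against 395671, 404826 and 417717 at 1 µM, without overlap and with a log2 difference of -0.21 (SE 0.24).

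Lists of miRNAs known from other cell types and from p53 signalling are set beside the median of all sequences, 0.15. Of the 10 fibroblast and muscle sequences, 8 were higher and 1 lower, with a median of 1.16, and without library 3 the 7 still tested had a median of 0. That 0 is the value of bta-miR-199c_L-1R+2, which was listed at 0 in all 6 libraries. miR-199a-5p, of fibroblasts, had 285, 289.6 and 1333 normalized counts at 10 µM, against 359, 358 and 416 at 1 µM, so that libraries 1 and 2 were below every 1 µM library and library 3 above. The 5 sequences of the p53-regulated miR-34 family had 4 higher and 1 lower, with medians of 0.81 and 0.70 without library 3, when all 5 were higher. miR-34a-5p, the most abundant, had 4534, 3226 and 2656 at 10 µM, against 3557, 3252 and 3411 at 1 µM. It overlapped, with a log2 difference of -0.007, or 0.17 without library 3. miR-34c-5p had 144, 92.2 and 256 at 10 µM, against 77.0, 77.0 and 105.8 at 1 µM, also overlapping. The sum of the family, mostly miR-34a-5p, was 4765, 3405 and 3149 at 10 µM, against 3681, 3382 and 3567 at 1 µM, and overlapped too. The epithelial list (9 sequences) had a median of 0.16, close to that of all sequences, and of -0.59 without library 1 at 10 µM. Its most abundant member, miR-200c-3p, which represses the drivers of epithelial to mesenchymal change, had 2086, 1977 and 2449 at 10 µM, against 1782, 1715 and 1928 at 1 µM, without overlap. The Dlk1-Dio3 cluster (7) had a median of 0.72 but 0 abundant members, and the neural list (6) had 0.43. The liver and red cell list (3) had a median of 0.12, or -0.56 without library 3. In it miR-451a, of red cells, had 36.2, 83.0 and 201 at 10 µM, against 31.6, 76.0 and 223 at 1 µM.

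**Figure D5:**
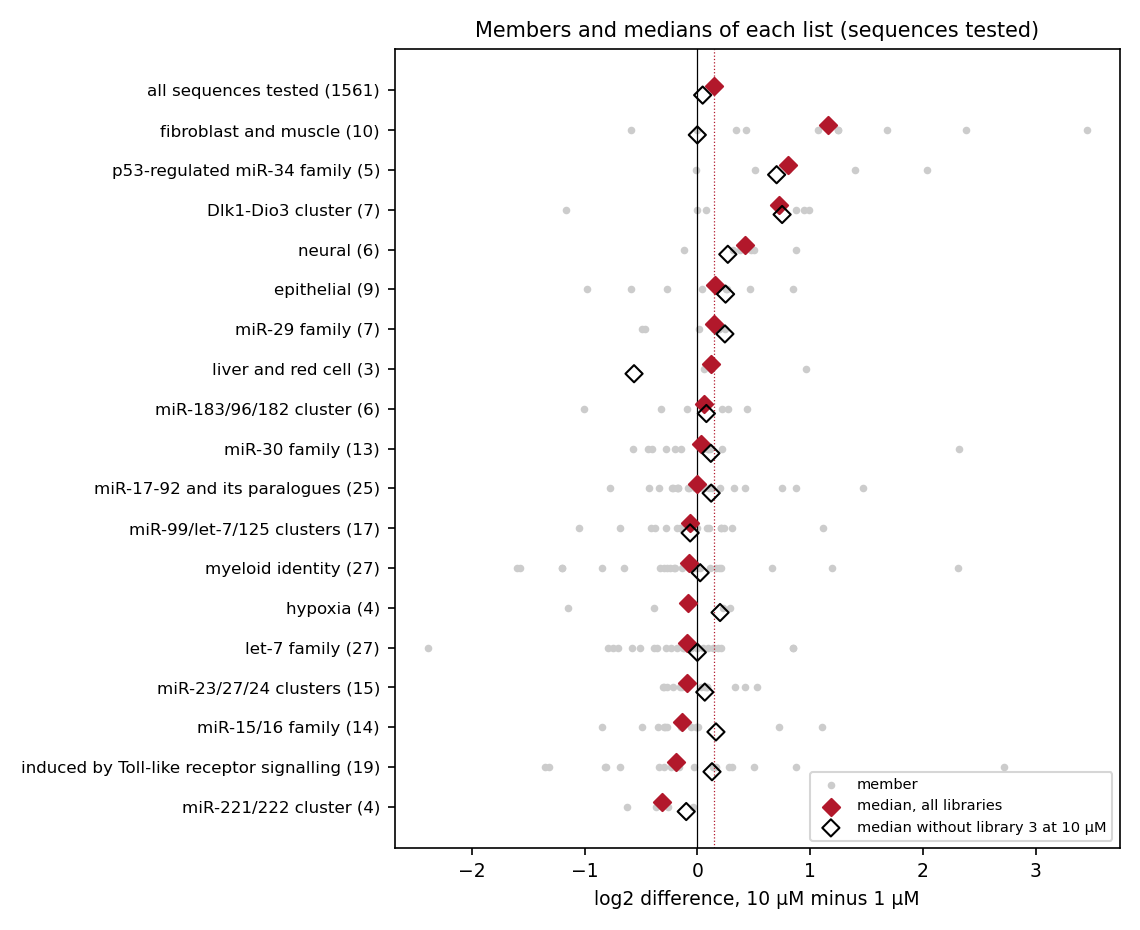
Log2 differences (10 µM minus 1 µM) of the tested members of each list in grey, their median with all libraries as a filled red diamond and without library 3 at 10 µM as an open diamond; the number tested stands beside each list and the dotted line marks the median of all 1561 sequences (0.15). When library 3 is left out, the fibroblast and muscle median moves from 1.16 (10 sequences) to 0 (7 sequences), while the miR-34 median moves from 0.81 to 0.70.

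A group of sequences noticed after their values were seen ends in CCA, the 3′ end that mature tRNAs carry, and is not found whole in a mouse hairpin. Of 84 tested, 49 were higher and 33 lower, with a median of 0.12, or -0.05 without library 3 (30 higher and 49 lower). They took 1.19, 1.30 and 1.91% of the libraries at 10 µM, against 1.39, 1.42 and 1.22% at 1 µM. Of the 33 abundant ones, 0 were higher and 6 (18.2%) lower in every 10 µM library, against 5.2% and 6.38% of all abundant sequences. Many are trimmed forms of one another, so they are not independent, and the labels' protocols name tRNA among the RNA families filtered out. Of the 6, hsa-miR-4286_R+1 had 4178, 4372 and 4117 normalized counts at 10 µM, against 5087, 5585 and 4799 at 1 µM. The form pal-miR-9226-5p_L-4 had 572, 579 and 521 at 10 µM, against 725, 756 and 714 at 1 µM. The form hsa-miR-7977_1ss6AG had 3318, 3845 and 3935 at 10 µM, against 4934, 5680 and 4453 at 1 µM. In these 3, library 3 did not stand apart at 10 µM. Their log2 differences were -0.29 (SE 0.16), -0.39 (SE 0.18) and -0.44 (SE 0.17), and -0.27, -0.34 and -0.48 without library 3, none past the threshold (limma adjusted p = 0.683 each by Benjamini-Hochberg). In the rest of these lower forms, library 3 at 10 µM was the lowest library. At 10 µM pal-miR-9226-5p_1ss4AG had 1087, 1250 and 581, hsa-miR-4454_L-2 had 972, 1035 and 581, and efu-miR-9226_L-1_2ss4AG22GA had 286, 315 and 229. Other sequences ending in CCA went the other way in library 3, such as hsa-miR-1260a_1ss9TG with 17307, 16878 and 42298 at 10 µM, against 20458, 20455 and 17524 at 1 µM.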

How the data were processed

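Small RNA from 9 samples of RAW264.7 cells was sequenced, 3 per group. TruSeq libraries were built from some 5 µg of total RNA each and cleaned with ACGT101-miR, which per the labels also discarded reads of repeats and of common RNA families such as tRNA and rRNA. The deposited signal values are the authors' normalized counts per sequence. How they were scaled, and the build, is not given in the sources used here. Because library sums were brought close together, a shift common to most miRNAs could not be seen.

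Of 1608 rows, 37 repeated a sequence with equal values and were counted once. Of the 1561 sequences tested, 383 had the same values as another in all 9 libraries, and all were kept and counted. Over the 6 libraries of the comparison this held for 8 of the 423 abundant ones. Sequences were searched in hairpins of RefSeq and GENCODE vM21 (GRCm38), which held 718 whole and 187 by a core (at most 3 bases trimmed, at least 16 left), and 666 were found in neither. Coordinates and sequences refer to GRCm38.

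limma 3.58.1 (R 4.3.3) was fitted to log2(value + 1) for the 1561 sequences whose group mean reached 1 in any group. The model held 1 mean per group and used all 9 libraries, with an intensity trend, a two-sided contrast and Benjamini-Hochberg adjustment at 0.05. Seed sums (mean of at least 50 in some group) and arm ratios (mean of at least 10 on each arm) were fitted likewise. On simulated data for this contrast over 1561 sequences, 74 of 100 changed by 2-fold and 97 of 100 changed by 4-fold were recovered, with 5 false calls. Only abundant sequences were changed, and noise was drawn independently with a spread per sequence shared by all groups. In the data the median SD of abundant sequences was 0.46 at 10 µM and 0.14 at 1 µM, and library 3 differed in many sequences together. The recovered shares may thus not hold for the libraries compared. Not all values were whole multiples of a step, so they were not turned into reads for a test on counts. The planned test on the log scale was used. The replicate number is not stated to mark a culture or day, so it was not used in the fit. Checked after the fit, same-numbered libraries did not deviate together (r of -0.08, -0.35 and -0.32). Alternatives covered pseudocounts, filters, scaling, library weights, a replicate block and left-out libraries. Tables were read with pandas 2.3.3 and numpy 2.4.6 under Python 3.11.15. Figures used matplotlib 3.10.9.

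The text names the 8 abundant sequences of smallest p in each direction, the 5 in each direction without library 3 at 10 µM, 12 macrophage miRNAs, the 5 most abundant sequences, up to 4 members per list (18 lists), and the 3 seed sums and 3 arm ratios of smallest p. Members and lists were chosen with earlier results of these data known.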

Additional observations from a re-analysis of the deposited data

How the results depend on the processing

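The number of sequences that passed limma was 0 under every pseudocount, filter, scaling and library weight tried. Leaving out each library in turn gave 0 to 9 sequences, 0 to 6 seed families and 0 arm ratios, the highest counts without library 1 at 10 µM. The 9 sequences were 3 forms of miR-1246 (bta-miR-1246_R+2, hsa-miR-1246 and hsa-miR-1246_L-1R+2), hsa-miR-1290_L-1_1ss13TG, hsa-miR-1307-5p, cja-miR-589_R-1, hsa-miR-1260a, miR-148a-3p and efu-mir-9277-p3_1ss8CT. Without library 3 at 10 µM, 1 seed family passed. The replicate block gave 0 sequences, 0 families and 0 arm ratios and changed no call, with 71 sequences at an unadjusted p under 0.05. With a mean of at least 10 in place of 50, 77 sequences did not overlap between the doses, against 49. The filter of at least 10 on arm ratios equals the one used and gave no separate value.

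Array weights turned the log2 difference to 0.038 for miR-155-5p, 0.062 for miR-21a-5p, 0.088 for miR-223-3p, 0.13 for miR-221-3p, -0.083 for miR-99b-5p, 0.10 for miR-17-5p, 0.030 for miR-16-5p, 0.12 for miR-34a-5p, -0.15 for miR-199a-5p and -0.19 for miR-451a, and the let-7 list median to -0.0007. Leaving out each library in turn, the log2 difference ranged from -0.59 to 0.074 for PC-5p-3713_1568, -0.55 to 0.10 for miR-155-5p, -0.41 to 0.10 for miR-21a-5p, -0.14 to 0.0935 for miR-223-3p, -0.16 to 0.17 for miR-221-3p, -0.51 to 0.066 for miR-27a-3p, -0.48 to 0.10 for miR-147-3p, -0.16 to 0.46 for miR-99b-5p, -0.65 to 0.0765 for miR-146b-5p, -0.40 to 0.17 for miR-17-5p, -0.47 to 0.022 for miR-23a-3p, -0.62 to 0.13 for miR-16-5p, -0.22 to 0.17 for miR-34a-5p, -0.39 to 0.72 for miR-199a-5p, -0.61 to 0.78 for miR-451a and -0.11 to 2.64 for miR-143-3p. List medians then ranged from -0.15 to 0 for let-7, -0.15 to 0.12 for miR-30, -0.18 to 0.20 for miR-210, -0.12 to 0.0815 for the cluster of miR-183, -0.59 to 0.31 for the epithelial list, -0.61 to 1.38 for liver and red cell, and the Dlk1-Dio3 median was 1.72 with a pseudocount of 0.1. The cause of these changes was not tested. The median abundant sequence had an unadjusted 95% interval of 0.54 to either side on the log2 scale, or 0.39 without library 3.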

Other observations

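Several sequences were high in library 2 at 10 µM, less so in library 3, and low in library 1 and at 1 µM. They were picked after their values were seen and stand beside the forms of miR-1246 described above. hsa-miR-1290_1ss13TG had 2.44, 372 and 62.0 normalized counts at 10 µM, against 3.45, 4.75 and 5.57 at 1 µM. hsa-miR-1307-5p had 0, 261 and 17.2 at 10 µM and was listed at 0 in the 3 libraries at 1 µM. cja-miR-589_R-1 had 0, 88.1 and 19.3 at 10 µM and was likewise listed at 0 at 1 µM. None of these 3 was found in a mouse hairpin. The mouse miRNA miR-148a-3p (chromosome 6) had 17.4, 272.5 and 125.3 at 10 µM, against 27.6, 20.0 and 35.6 at 1 µM, the same pattern. In all 4, library 1 at 10 µM was no higher than any library at 1 µM.

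A different set was high in library 3 at 10 µM alone. miR-143-3p, of smooth muscle and fibroblasts, had 13.2, 16.4 and 647 at 10 µM, against 19.7, 14.3 and 14.5 at 1 µM, and its cluster partner miR-145a-5p had 13.9, 13.3 and 853 at 10 µM, against 5.92, 14.3 and 11.1 at 1 µM. Their part in the dose differences was not tested.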
